A study of Mus musculus with 13 samples.

Results

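10 genes for surface proteins that are targets of immunotherapy in multiple myeloma, the cancer of plasma cells, were followed across normal and malignant mouse plasma cells: Tnfrsf17, Tnfrsf13b, Tnfrsf13c, Slamf7, Fcrl5, Gprc5d, Cd38, Sdc1, Cd28 and Ly6k. They were chosen by name, and all 10 were among the 22997 gene symbols of the count table. RNA came from 13 libraries, each of 50000 bone marrow cells sorted for CD138 and CD45.2 and against B220. WT (3 libraries) was Wild-type. V (3) carried V{kappa}*MYC and IgG1-Cre. VQ (5) carried V{kappa}*MYC, Nras LSL Q61R/+ and IgG1-Cre, and came from recipients marked D1 (2 libraries), D4 (1) and D5 (2). The labels do not say what D1, D4 and D5 stand for, and recipients with the same mark were treated as 1 line. The last group, tVk12653, was 2 libraries from recipients of a transplantable line of that name. All mice were C57/BL6, and ages are not given in the labels. In the V{kappa}*MYC model a human MYC transgene becomes active in germinal centre B cells, and IgG1-Cre acts in B cells that switch to that antibody class, so both precede the plasma cell stage. Transplantation was used for VQ and tVk12653 and not for WT or V, and it cannot be told apart from genotype.

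These proteins matter because they sit on plasma cells where antibodies, bispecific molecules and CAR T cells can reach them. BCMA (encoded by Tnfrsf17), TACI (Tnfrsf13b) and the BAFF receptor (Tnfrsf13c) are related receptors for the survival ligands BAFF and APRIL. BCMA keeps long-lived plasma cells alive, TACI is shared by B cells and plasma cells, and the BAFF receptor serves mainly mature B cells. CD38 is an ectoenzyme that consumes NAD and is the target of daratumumab, and SLAMF7 is a receptor of the SLAM family targeted by elotuzumab. FCRL5 resembles Fc receptors, GPRC5D is an orphan G protein-coupled receptor, CD138 (Sdc1) is a heparan sulfate proteoglycan, CD28 is a costimulatory receptor of T cells that plasma cells also carry, and LY6K is a small GPI-anchored protein.

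Total counts were 2096815 to 8512281 per library, and a floor of 3 counts equalled 0.326 to 1.48 CPM (the usual depth-scaled read count, here with factors from trimmed means of M values). Libraries of 1 group had Spearman correlations of 0.957 to 0.986. The labels number the libraries differently but do not say that each is a separate animal, so p-values measure the spread between libraries, which may be technical. In the comparisons of WT, V, VQ and tVk12653, recipients of a VQ line were summed and all groups shared 1 estimate of spread. Those p-values, V against WT and tVk12653 against WT among them, therefore also carry the spread between the VQ lines. All 10 plasma cell markers on the list used were detected in every group. Jchain, the joining chain of secreted IgA and IgM, stood at 33486 to 64380 CPM in WT, 34798 to 55132 in V, 44.5 to 1507 in the VQ lines and 3990 to 6731 in tVk12653. The other 9 summed to 6723 to 10873 CPM in WT, 10920 to 11149 in V, 8221 to 11976 in the VQ lines and 8580 to 9144 in tVk12653. Mzb1, a marker among them, stood at 0.561 CPM in D4 and 6.69 and 7.24 in tVk12653. Cells were sorted for CD45.2, and Ptprc, the CD45 gene, stood at 1.68 CPM in D4 and at 1.85 and 6.64 in D5, against 182 to 792 in the other libraries. Summed neutrophil markers were 3411 to 9412 CPM in WT, 1855 to 3720 in V, 371 to 1268 in D1 and 72.9 to 159 in D4, D5 and tVk12653. In bulk RNA, fewer cells of a type and less RNA per cell cannot be told apart.

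The stretch of 250 bases upstream of an annotated start of the BCMA, TACI and BAFF receptor genes is shown because these related receptors went different ways among the tumour lines. The sequences are from RefSeq on build GRCm38.p6, which had an entry for 8 of the 10 genes. They lie at chr16:11313559-11313808 (plus strand), chr11:61126505-61126754 (plus strand) and chr15:82224381-82224630 (minus strand), each written 5′ to 3′ along the gene. The RefSeq spans of Tnfrsf17 and Tnfrsf13b begin further upstream, at 11313232 and 61126283. Their stretches therefore lie within those spans, just ahead of the GENCODE starts at 11313812 and 61126755.
Tnfrsf17: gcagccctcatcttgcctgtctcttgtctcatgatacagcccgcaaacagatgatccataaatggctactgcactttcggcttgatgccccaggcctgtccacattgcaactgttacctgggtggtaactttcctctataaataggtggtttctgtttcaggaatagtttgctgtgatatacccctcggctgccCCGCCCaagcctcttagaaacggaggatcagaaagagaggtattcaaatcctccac
Tnfrsf13b: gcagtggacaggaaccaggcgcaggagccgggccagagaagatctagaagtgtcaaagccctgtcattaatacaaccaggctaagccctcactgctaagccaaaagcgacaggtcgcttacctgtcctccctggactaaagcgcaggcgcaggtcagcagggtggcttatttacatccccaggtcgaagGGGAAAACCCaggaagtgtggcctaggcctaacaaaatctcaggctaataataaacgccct
Tnfrsf13c: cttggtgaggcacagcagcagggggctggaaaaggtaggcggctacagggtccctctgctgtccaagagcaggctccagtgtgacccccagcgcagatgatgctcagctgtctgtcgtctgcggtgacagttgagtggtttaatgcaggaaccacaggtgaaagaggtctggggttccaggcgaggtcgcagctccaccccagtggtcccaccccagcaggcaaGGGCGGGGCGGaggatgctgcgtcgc
Capitals mark matches, on either strand, to any of 5 motifs searched: the E-box CACGTG, the ETS-IRF composite, the cyclic AMP element TGACGTNA, the NF-kB pattern and the GC box GGGCGG. The BCMA stretch holds 1 GC box, the TACI stretch 1 NF-kB pattern and the BAFF receptor stretch 2 GC boxes, with no matches to different motifs overlapping. Of 32851 promoter stretches of the same length, 32.7% hold a GC box, 17.6% the NF-kB pattern, 6.02% the E-box, 2.52% the cyclic AMP element and 2.30% the composite. A match is a description of the letters only.

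BCMA RNA overlapped between WT and V plasma cells, and the tumour lines lay far apart from each other. Tnfrsf17 (GRCm38 chromosome 16, 11313812 to 11320074) measured 149, 82.8 and 129 CPM across the WT libraries, with V libraries at 109, 126 and 136. Line D1 had 8.33 and 2.82 CPM, line D4 32.1, line D5 58.5 and 83.5, and the tVk12653 pair 20.5 and 23.9. Every D1, D4 and tVk12653 library lay below every WT library, while a D5 library lay just inside the WT range. As arms, VQ against WT gave a log2 fold change of -1.68 ± 0.71 (standard error, adjusted p = 0.0950) and tVk12653 against WT -2.44 ± 0.86 (adjusted p = 0.0595), so neither passed at 0.05. Both passed with DESeq2 (adjusted p = 0.0345 and 0.00728), without line D1 or line D5, and with 1 mean per group over all libraries. The lines themselves differed: D1 was lower than D5 by 3.87 ± 0.42 on the log2 scale, a log2 fold change of -3.87 (adjusted p = 2.65e-05), in a fit of all 13 libraries.

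TACI RNA differed between the same lines in the opposite direction. Tnfrsf13b (chromosome 11, 61126755 to 61149372) measured 666, 470.3 and 736 CPM across the WT libraries, with V libraries at 629.6, 689 and 868. Line D1 had 449 and 360.1 CPM, line D4 525, line D5 121 and 112, and the tVk12653 pair 405 and 344. The D5 libraries were the lowest of all 13, and D1 was higher than D5 (log2 fold change 1.80 ± 0.22, adjusted p = 1.57e-05). Against WT the arms did not pass, at -0.83 ± 0.42 for VQ (adjusted p = 0.155) and -0.74 ± 0.48 for tVk12653 (adjusted p = 0.276). Both tVk12653 libraries lay below every WT library. That difference passed in 4 of 21 alternatives, among them the 2 arms alone (adjusted p = 0.0247) and the fit without D5 (0.0331). VQ against WT passed in 3 of 21. VQ against V gave -1.06 ± 0.42 (adjusted p = 0.0848), with every VQ library below every V library, and passed in 5 of 21.

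The BAFF receptor did not pass in any of the 6 comparisons. Tnfrsf13c (chromosome 15, 82221743 to 82224369) measured 355, 241 and 286 CPM across the WT libraries, with V libraries at 376, 482 and 402. Line D1 had 189 and 218 CPM, line D4 633, line D5 149.8 and 218, and the tVk12653 pair 249.6 and 442. D4 held the highest level of any library, while all D1 and D5 libraries lay below all WT libraries. VQ against WT gave 0.25 ± 0.42 (adjusted p = 0.672), and -0.50 (adjusted p = 0.162) without D4. Summed B cell markers, a cell type that carries this receptor, were 713 to 1148 CPM in WT, 796 to 1063 in V, 74.3 to 218 in the VQ lines and 110.4 to 143 in tVk12653. Of the 11 B cell markers 4 were at 0 in D1, D4 and tVk12653 and 3 in D5, Cd79a among them in D1 and D4. The part of B cell RNA in these receptor levels was not tested.

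Per kilobase of exon, so that the genes can be compared, the make-up of the receptor family differed between lines. In WT, BCMA was 26.4 to 30.9% of the summed counts per kilobase of the 3 receptors, and in V 24.4 to 24.9%. Line D1 had BCMA shares of 3.92 and 1.46%, line D4 of 7.38% and tVk12653 of 8.70 and 7.99%, while the D5 shares were 38.3 and 41.2%. TACI was 39.7 to 46.6% in WT and held the largest share there, 60.7 and 53.6% in D1, and 22.7 and 15.9% in D5. The BAFF receptor was 25.0 to 30.6% in WT and 29.3 to 37.2% in V. Line D1 had BAFF receptor shares of 35.4 and 44.9%, line D4 of 57.9%, line D5 of 39.0 and 42.9%, and tVk12653 of 42.0 and 58.9%, so every tumour library lay above every WT library. These shares are a description of each library, and no test was run on them.

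**Figure D1:**
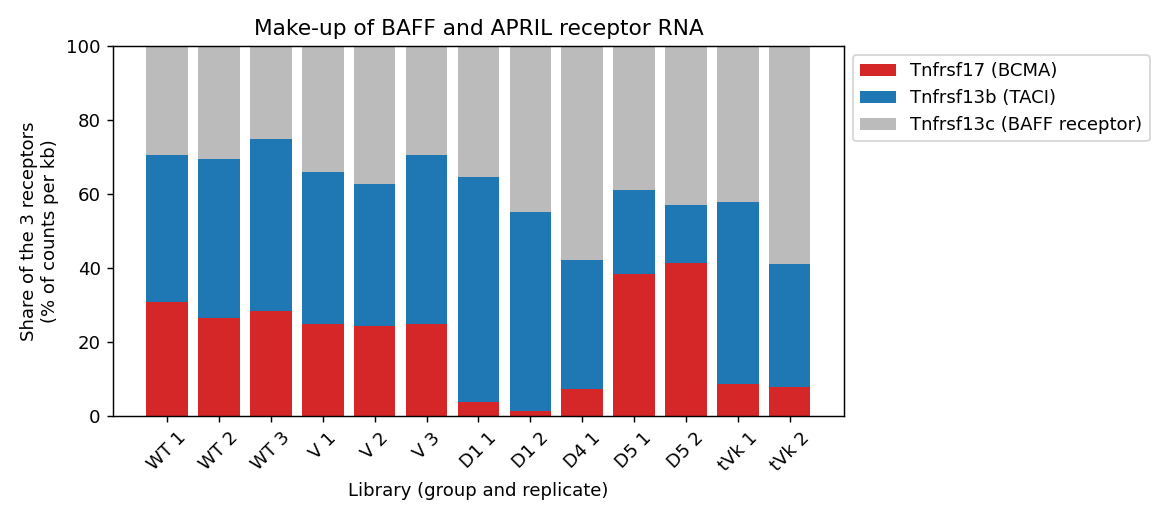
Share of counts per kilobase of exon (y axis, %) taken by Tnfrsf17, Tnfrsf13b and Tnfrsf13c in each of the 13 libraries (x axis, 1 stacked bar per library, named by group and replicate). Tnfrsf17 takes 1.46 to 8.70% in D1, D4 and tVk12653 and 38.3 and 41.2% in D5.

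The ligands and signalling genes of these receptors were followed next. Of 11 BAFF and APRIL signalling genes tested, 6 were lower and 0 higher in VQ than in WT, where 15.1% of all genes were called lower (median log2 fold change -1.69, over all genes 0.08). In tVk12653 against WT 1 was higher and 2 lower, near the 12.6% and 15.7% of all genes called higher and lower (median -0.24, over all genes -0.05). Map3k14, the kinase NIK that drives alternative NF-kB signalling below these receptors, stood at 24.6, 33.1 and 22.4 CPM in WT, 5.47 to 9.94 in the VQ lines, and 592 and 521 in tVk12653. It fell in VQ (-1.87 ± 0.23, adjusted p = 5.27e-04), rose in tVk12653 (4.38 ± 0.25, adjusted p = 4.79e-05), and differed between them (-6.25 ± 0.27, adjusted p = 6.26e-06). Birc3, an inhibitor of apoptosis that helps to degrade NIK, fell in VQ, to 27.3 to 59.2 CPM from 105 to 128 in WT (-1.46 ± 0.23, adjusted p = 0.00173), and VQ also differed from tVk12653 (-1.72 ± 0.25, adjusted p = 0.00448). Tnfsf13b, the BAFF ligand, fell in VQ (-2.71 ± 0.49) and tVk12653 (-2.57 ± 0.59), from 8.23 to 14.7 CPM in WT to at most 2.496 in any tumour library. Summed monocyte and neutrophil markers were also lower in every tumour library than in every WT library, and their part in this fall was not tested. Traf2, an adaptor of the same pathway, fell in VQ and tVk12653 as well (-1.10 ± 0.26 and -0.93 ± 0.29). Of 6 tested subunits of gamma-secretase, the protease that sheds BCMA from the surface, Ncstn rose in VQ (1.26 ± 0.29, adjusted p = 0.00937) and tVk12653 (1.26 ± 0.31, adjusted p = 0.0163), and the other 5 did not pass. Ncstn stood at 100 to 109 CPM in WT and 122 to 134 in V. Line D1 had 330 and 346 CPM of it, line D4 259, and the tVk12653 pair 220 and 282, while D5, at 129 and 124, lay within the V range.

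CD38 RNA was at or near 0 in every tumour line. Cd38 (chromosome 5, 43868553 to 43912375) measured 23.2, 20.6 and 26.1 CPM across the WT libraries, with V libraries at 25.6, 22.0 and 37.3. Line D1 had 0.537 and 0 CPM, line D4 0, line D5 2.38 and 0.766, and the tVk12653 pair 0 and 0. No tumour library came near the WT and V libraries, and 14 counts were seen in all 5 VQ libraries together. VQ was lower than WT (-5.28 ± 0.90, adjusted p = 0.00324) and than V (-5.57 ± 0.91, adjusted p = 0.00342). With no count in either tVk12653 library, Cd38 was there at least 21.5-fold lower than the WT mean, taking 3 counts per library as the floor, and the difference passed (adjusted p = 0.00543). D1 was lower than D5 (-3.04 ± 0.99, adjusted p = 0.0247), a call on 2 and 12 counts that was lost without D5 replicate 1 or D1 replicate 2 (adjusted p up to 0.276).

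Of 4 tested genes for NAD and adenosine ectoenzymes and receptors, which act beside CD38, 2 were higher and 2 lower in VQ (17.3% and 15.1% over all genes, median -0.30), and 1 higher and 2 lower in tVk12653 (12.6% and 15.7% over all genes, median -1.16). Nt5e (CD73), which makes adenosine, fell in VQ (-3.90 ± 0.77) and in tVk12653 (-5.70 ± 1.16), from 6.68 to 11.04 CPM in WT to at most 1.26 in any tumour library. Entpd1 (CD39), which breaks down extracellular ATP, rose in VQ (1.19 ± 0.22, adjusted p = 0.00377), with 443 to 856 CPM in the VQ libraries against 233 to 356 in WT. Enpp1, a nucleotide pyrophosphatase, rose in VQ (1.19 ± 0.30) and tVk12653 (1.06 ± 0.33). The adenosine receptor gene Adora2a fell in both (-1.78 ± 0.56 and -2.62 ± 0.71).

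SLAMF7 RNA was lower in all tumours but stayed abundant. Slamf7 (chromosome 1, 171632403 to 171653035) measured 956, 699.9 and 1023 CPM across the WT libraries, with V libraries at 1006, 1008 and 1173. Line D1 had 602 and 508 CPM, line D4 458, line D5 379 and 376, and the tVk12653 pair 245 and 284. Every tumour library lay below every WT and V library. It fell in VQ against WT (-0.91 ± 0.19, adjusted p = 0.00566) and against V (-1.17 ± 0.19, adjusted p = 0.00249), and in tVk12653 against WT (-1.75 ± 0.22, adjusted p = 7.74e-04). VQ was higher than tVk12653 (0.84 ± 0.21, adjusted p = 0.0373), a call kept in 11 of 21 alternatives and lost without WT replicate 1, WT replicate 3, any V library, either tVk12653 library or line D1, without the low count filter and with the 2 arms alone (adjusted p up to 0.281). D1 was higher than D5 (0.56 ± 0.18, adjusted p = 0.0195), which did not pass without D1 replicate 1 or either D5 library (adjusted p up to 0.144). An antisense gene, Gm37787, spans 423 of the 4577 exonic bases of Slamf7 and is not a row of the table, and whether counting used strand is not given.

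Of 7 tested SLAM family genes and adaptors, 4 were lower and 1 higher in VQ, where 15.1% of all genes were lower and 17.3% higher (median -4.38, over all genes 0.08). In tVk12653 4 were lower and 0 higher, beside 15.7% and 12.6% of all genes (median -3.68, over all genes -0.05). Slamf1 stood at 18.6, 4.42 and 13.1 CPM in WT and at most 0.766 in any VQ library, and had no count in tVk12653, at least 11.1-fold below WT. Cd84, a self-binding receptor of the family, stood at 42.9 to 94.9 CPM in WT and at most 4.30 in any tumour library. Cd48, a ligand within the family, fell in tVk12653 (-3.68 ± 0.56, adjusted p = 0.00189) and did not pass in VQ (-0.84 ± 0.40, adjusted p = 0.130), and the 2 tumour arms differed (2.84 ± 0.54, adjusted p = 0.0131). Ly9 was the exception, with a rise in VQ (0.94 ± 0.22, adjusted p = 0.00923). It stood at 183 and 197 CPM in D1 and 194 in D4, against 79.9 to 102 in WT. The D5 libraries had 101 and 122 CPM of it, the lower inside the WT range.

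FCRL5 RNA was scarce in plasma cells and lower in tumours. Fcrl5 (chromosome 3, 87435773 to 87500678) had 9, 24 and 15 counts in WT, or 3.16, 8.83 and 4.26 CPM, and 8.86, 2.49 and 5.84 CPM in V. Line D1 had 0 and 0.109 CPM, line D4 0.140, line D5 0.529 and 0.255, and the tVk12653 pair 0.693 and 0. No tumour library reached the WT or V range, although the 5 VQ libraries held only 5 counts together and the tVk12653 libraries 3. Summed over libraries, the level in VQ was 0.0341 of that in WT (95% exact binomial interval 0.0106 to 0.0852) and in tVk12653 0.0800 (0.0159 to 0.248), intervals that cover counting error only. The difference passed for VQ (adjusted p = 0.00558) and for tVk12653 (adjusted p = 0.0340), the latter lost without WT replicate 2, WT replicate 3, V replicate 3 or either tVk12653 library (adjusted p up to 0.170). The B cell markers given above moved with it. Of 5 tested Fc receptor and Fc receptor-like genes, 3 were lower and 0 higher in VQ and likewise in tVk12653, where 15.1% and 15.7% of all genes were called lower (medians -2.77 and -3.92, over all genes 0.08 and -0.05). Fcgr2b, the inhibitory receptor for IgG, stood at 114 to 137 CPM in WT, 10.2 to 29.9 in the VQ lines and 25.6 and 45.2 in tVk12653. Fcrl1, a receptor of B cells, stood at 20.4 to 41.5 CPM in WT and at most 9.26 in any tumour library, and Fcgr3, a receptor of myeloid and NK cells, at 13.7 to 49.3 and at most 5.11 CPM.

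GPRC5D had no count in most libraries. Gprc5d (chromosome 6, 135105991 to 135118283) had 19 counts in D4 (2.66 CPM, 95% exact binomial interval 1.60 to 4.16) and 8 in D5 replicate 2 (2.04 CPM), and 0 in the other 11 libraries, D5 replicate 1 among them. It did not pass the filter on low counts. D4 stood at least 2.41-fold above WT at the 3-count floor, and in a fit without that filter VQ against WT did not pass (adjusted p = 0.186). The related receptor gene Gprc5b measured 7.38, 1.47 and 1.14 CPM across the WT libraries, with V libraries at 34.5, 7.46 and 11.3. Line D1 had 237 and 183 CPM of it, line D4 156, line D5 0.265 and 3.57, and the tVk12653 pair 97.7 and 149. Against WT it rose in VQ (5.21 ± 1.41, adjusted p = 0.0194) and tVk12653 (5.22 ± 1.46, adjusted p = 0.0258), although D5 lay within or below the WT range. VQ against V did not pass (2.79), and D1 exceeded D5 (6.73 ± 0.92, adjusted p = 4.03e-04).

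CD138, on which all cells were sorted, did not pass in either tumour arm, while its RNA differed between lines. Sdc1 (chromosome 12, 8771323 to 8793715) measured 1003, 675 and 965 CPM across the WT libraries, with V libraries at 927, 977 and 1122. Line D1 had 925 and 842 CPM, line D4 1425, line D5 365 and 421, and the tVk12653 pair 529.8 and 1043. D4 lay above and both D5 libraries below every WT library. VQ against WT gave 0.06 ± 0.40 (adjusted p = 0.926) and tVk12653 against WT -0.16 ± 0.45 (adjusted p = 0.820), and D1 was higher than D5 (1.17 ± 0.27, adjusted p = 0.00435). A gate on CD138 selects cells that carry the protein, so these levels describe sorted cells only. Of 11 genes for other syndecans, heparan sulfate synthesis and shedding, 2 rose and 1 fell in VQ, near the 17.3% and 15.1% over all genes (median 0.57, over all genes 0.08). In tVk12653 2 rose and 4 fell, beside 12.6% and 15.7% over all genes (median -1.20, over all genes -0.05). Ext2, which polymerizes heparan sulfate, rose in VQ (1.11 ± 0.20) and tVk12653 (0.98 ± 0.22). Extl3, which starts those chains, fell in tVk12653 (-1.61 ± 0.27, adjusted p = 0.00286) and gave 0.13 ± 0.22 in VQ. Ext1, another gene of the list, did not follow Ext2 in every tumour line. Its level was 25.8 to 31.2 CPM across WT and 23.8 to 38.3 across V. Both D5 libraries exceeded these ranges, at 101 and 72.0 CPM, while the single D4 library (34.5) lay within the V range. The tVk12653 pair was lower than WT, at 10.85 and 14.1 CPM, and the D1 pair lowest, at 0 and 0.217. Sdcbp (syntenin), which binds the syndecan tail, fell in tVk12653 (-1.22 ± 0.24, adjusted p = 0.00595). The protease gene Mmp9, also abundant in neutrophils, fell in both, and it stood at 271 CPM in WT replicate 2, which had the most neutrophil RNA.

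CD28 RNA was lower in all tumours and lowest in tVk12653. Cd28 (chromosome 1, 60716800 to 60773359) measured 112, 89.1 and 143 CPM across the WT libraries, with V libraries at 110.3, 104 and 171. Line D1 had 73.6 and 34.7 CPM, line D4 29.3, line D5 43.4 and 44.9, and the tVk12653 pair 7.85 and 2.17. All tumour libraries lay below all WT and V libraries, and both tVk12653 libraries below all VQ libraries. It fell in VQ against WT (-1.46 ± 0.37, adjusted p = 0.0146), in VQ against V (-1.64 ± 0.37, adjusted p = 0.0115) and in tVk12653 against WT (-4.45 ± 0.52, adjusted p = 5.65e-04). VQ was higher than tVk12653 (2.98 ± 0.49, adjusted p = 0.00760), which did not pass without tVk12653 replicate 2 (adjusted p = 0.0596) or in a fit of the 2 arms alone (0.174). The call against V was lost without V replicate 3 (adjusted p = 0.0526). T and NK cell markers moved with Cd28: the sum of 14 was 98.1 to 151 CPM in WT, 70.9 to 119 in V, 4.21 to 14.3 in the VQ lines and 0.724 to 2.77 in tVk12653. Of the 14, 2 were at 0 in D1, 10 in D4, 6 in D5 and 11 in tVk12653, and the part of T and NK cell RNA in Cd28 was not tested. Of 8 tested genes of the CD28 family, its ligands and its signalling, 3 fell in VQ and none rose, where 15.1% of all genes fell and 17.3% rose (median -1.67, over all genes 0.08). In tVk12653 2 fell and 1 rose, near the 15.7% and 12.6% over all genes (median -1.51, over all genes -0.05). Ctla4, the inhibitory relative of CD28, stood at 109.7, 31.3 and 61.9 CPM in WT, 12.8 to 26.9 in V and at most 2.38 in any tumour library. Pik3r1, a subunit of the kinase that binds CD28, rose in tVk12653 (1.89 ± 0.37, adjusted p = 0.00585), and the adaptor Grb2 fell in both tumour arms (-0.78 ± 0.18 and -0.80 ± 0.21).

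**Figure D2:**
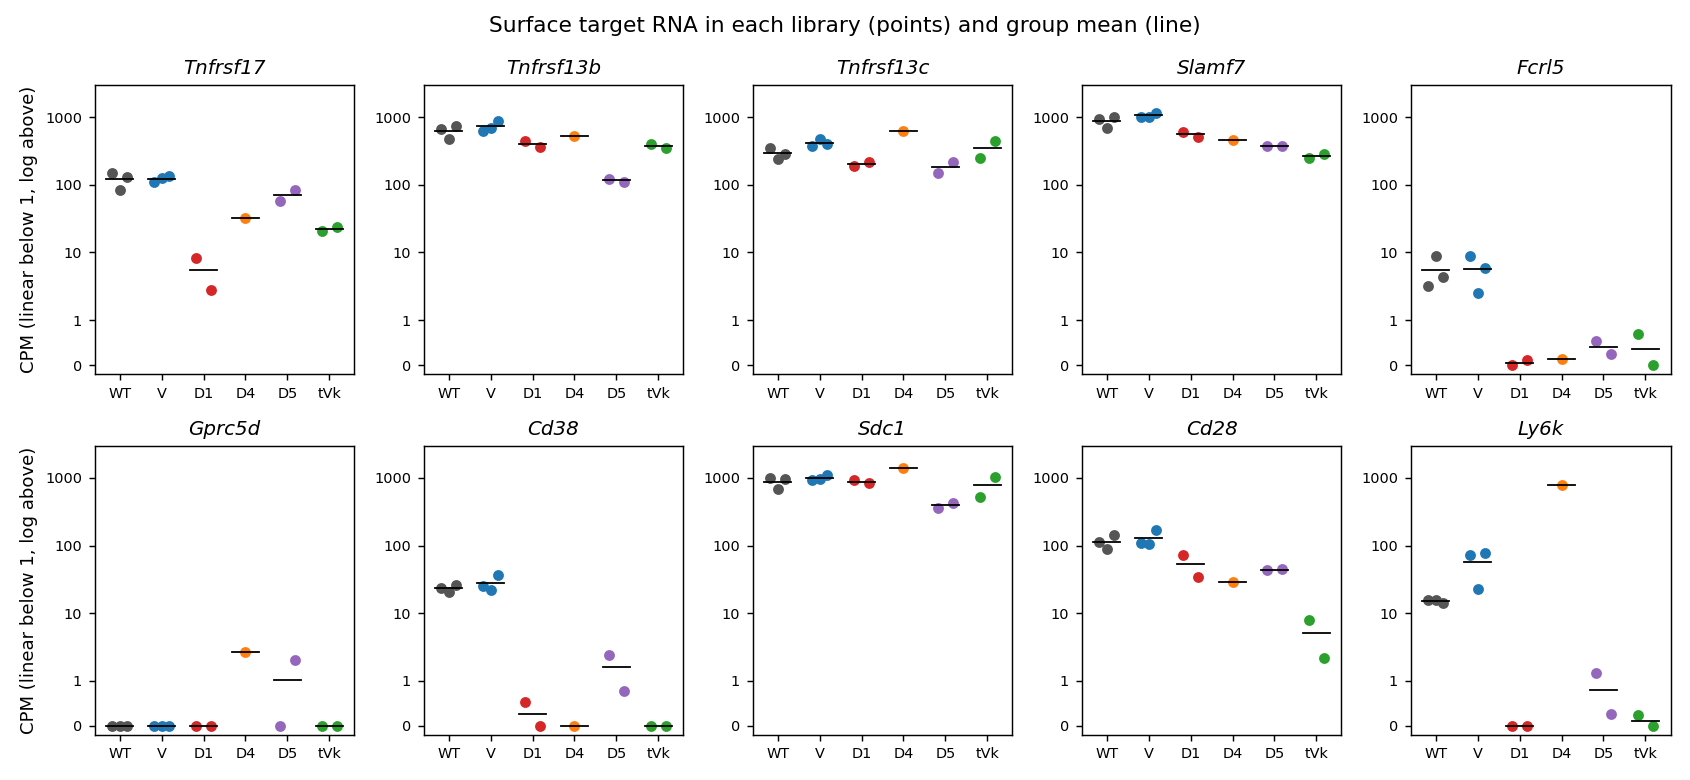
CPM of the 10 surface target genes (y axis, linear below 1 and logarithmic above) in every library, with 1 point per library, a line at the group mean, and the groups WT, V, D1, D4, D5 and tVk12653 (tVk) along the x axis. Cd38, Fcrl5, Slamf7 and Cd28 lie lower in every tumour library than in every WT and V library, and Ly6k stands at 787 CPM in D4 and at most 77.8 elsewhere.

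LY6K RNA was high in line D4 and at or near 0 in the other tumour lines. Ly6k (chromosome 15, 74796874 to 74799986) measured 15.8, 15.8 and 14.2 CPM across the WT libraries, with V libraries at 72.9, 22.4 and 77.8. D4 held 5613 counts, or 787 CPM (95% exact binomial interval 767 to 808, counting error only). D1 had no count in either library, at least 19.0-fold below WT, D5 had 5 and 1 counts, and tVk12653 had 1 and 0. As an arm, VQ against WT gave 4.10 ± 2.08 (adjusted p = 0.157), and without D4 it gave -5.37 (adjusted p = 0.00403). All V libraries lay above all WT libraries (1.92 ± 1.96, adjusted p = 1), although the difference did not pass. In GENCODE an antisense gene, Gm17189, spans all 829 exonic bases of Ly6k when its own introns are included. Of the 50-base stretches of Ly6k transcripts, 32.7% occur in Gm17189 transcripts. Without knowledge of the strand setting, reads of those stretches cannot be told apart.

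The neighbours of Ly6k in the same gene cluster were looked at after its level in D4 was seen. Of the 12 nearest genes of the table, Ly6g6g, the nearest at lower coordinates, had 20 counts in D4 and at most 1 in any other library. Gml, the nearest at higher coordinates, had 1 count in D4. Ly6d stood at 356 CPM in D4, between 119 to 181 in WT and 564 to 809 in D1 and tVk12653, and had 1 count in D5. Ly6e stood at 4967 CPM in D4, 1101 to 1298 in WT, and 314 and 425 in D5. Of 9 tested genes of the wider Ly6 and uPAR family, 7 were higher and 0 lower in D1 than in D5 (median 5.53, over all genes 0.05), against 20% of all genes called higher. In VQ against WT and tVk12653 against WT only Ly6m passed, and it was lower, 1 of 9 beside 15.1% and 15.7% of all genes (-2.98 ± 0.66 and -5.34 ± 1.03). Of the 50-base stretches of Ly6k, 32.7% also occur in Gm17189 and none in another gene.

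**Figure D3:**
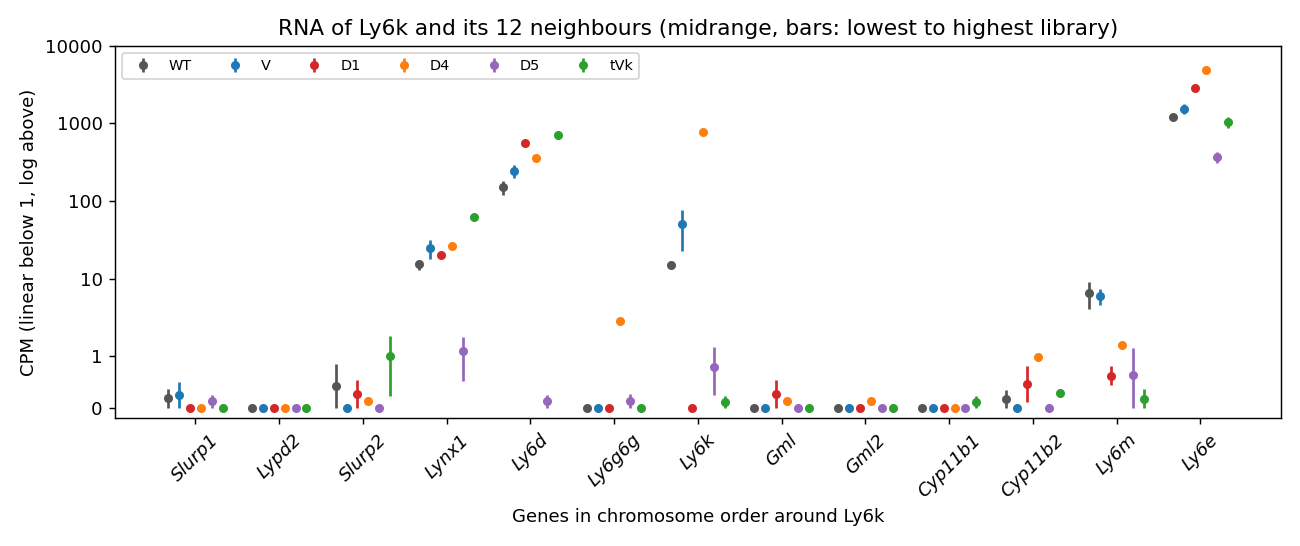
CPM (y axis, linear below 1 and logarithmic above) of Ly6k and its 12 nearest genes in chromosome order (x axis), with points at the middle of each group's range and bars from its lowest to its highest library. Ly6k stands at 787 CPM in D4, and the low D5 levels of Lynx1, Ly6d and Ly6e lie below those of every other group.

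V against WT sets the MYC transgene and Cre against neither, and none of the 9 tested genes passed. None had an unadjusted p under 0.05 in edgeR either, and DESeq2 called none of the 8 for which it gave an adjusted p, which leaves out Ly6k (42 genes in all). Log2 fold changes ran from 0.05 (Tnfrsf17) to 0.52 (Tnfrsf13c), with Ly6k at 1.92. Over all 11933 genes tested 0% were called and 628 had an unadjusted p under 0.05. Of the 9 targets, Tnfrsf13c and Ly6k had every V library above every WT library. The share of all genes that separate in this way was not counted, so this describes those genes only. WT and V libraries with the same number deviated together, and when that number was made a block for these 6 libraries alone Ly6k passed (1.81 ± 0.37, adjusted p = 0.0430, 479 genes called in all). In the blocked fit of all 13 libraries Ly6k did not pass (adjusted p = 0.0606). The block was chosen from these same data and the labels do not link WT and V numbers, so the call is not independent support. Sex-linked RNA differed as well, Xist at 1491 to 2626 CPM in V and at 1479, 2.58 and 3.98 in WT, and the part of sex was not tested.

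VQ against WT and tVk12653 against WT each called 4 of 9 tested members, Cd38, Slamf7, Fcrl5 and Cd28, and all 4 lower. Over all genes 15.1% were called lower and 17.3% higher in VQ (32.4% in all), and 15.7% lower and 12.6% higher in tVk12653 (28.2%). The median log2 fold change of the 9 was -0.91 in VQ and -2.44 in tVk12653, beside 0.08 and -0.05 over all genes. These comparisons share the WT libraries. Sdc1, Tnfrsf13b, Tnfrsf13c, Tnfrsf17 and Ly6k did not pass in either. With 1 mean per group over all libraries, where recipients of a line count separately, 7 members passed in each, with Tnfrsf17, Tnfrsf13b and Ly6k added, and the same 7 passed with the replicate number as a block. Recipients of a line count separately in the block fit too. It also ties tumour libraries to WT and V by number. Deviations of WT libraries correlated at -0.0362 and -0.133 with same-number D1 libraries, and at -0.0279 and 0.0307 with those of D5. In VQ against V both fits called 8, with Tnfrsf13c as well. Ly6k was called lower in these fits, opposite in sign to the 4.10 given above for VQ against WT: the log2 fold change was -2.49 with 1 mean per group and -2.46 with the block in VQ against WT, and -4.40 and -4.27 in VQ against V. Summed neutrophil, B cell and T and NK cell markers were lower in every tumour library than in every WT library, as given above, and their part in these falls was not tested. Summed monocyte markers (492 to 2171 CPM in WT, 23.6 to 176 in tumours), erythroid markers (179 to 1063 and 5.36 to 27.7) and dendritic cell markers (649.5 to 810.1 and 312 to 490) were lower as well. Basophil markers summed to 9.85 to 33.9 CPM in WT and 0.255 to 5.11 in tumours, megakaryocyte markers to 9.49 to 38.3 and 0.766 to 7.52, and stromal markers to 119.8 to 169.6 and 15.9 to 446. Against V, VQ also called these 4 lower (12.4% of all genes lower, 15.6% higher, 28.0% in all, and a median of -1.17, over all genes 0.08). Summed neutrophil, B cell and T and NK cell markers of V overlapped those of WT, as given above. VQ against tVk12653 called 2 members, Slamf7 and Cd28, both higher, where 5.97% of all genes were called higher and 4.19% lower (10.2% in all). With the block Tnfrsf13b passed there too, lower in VQ (-0.40, adjusted p = 0.0266). Single libraries moved the counts over all genes. The 3872 called in VQ against WT became 2505 without WT replicate 3, and the 3339 in VQ against V became 1912, 2118 and 1694 without V replicates 1, 2 and 3. In tVk12653 against WT 3369 became 2189 without WT replicate 2, 2184 without WT replicate 3, and 1258 and 1087 without tVk12653 replicates 1 and 2. In VQ against tVk12653 1212 became 762 to 801 without WT replicate 1, WT replicate 3 or any V library, 200 and 138 without tVk12653 replicates 1 and 2, and 2003 and 1902 without lines D1 and D4.

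**Figure D4:**
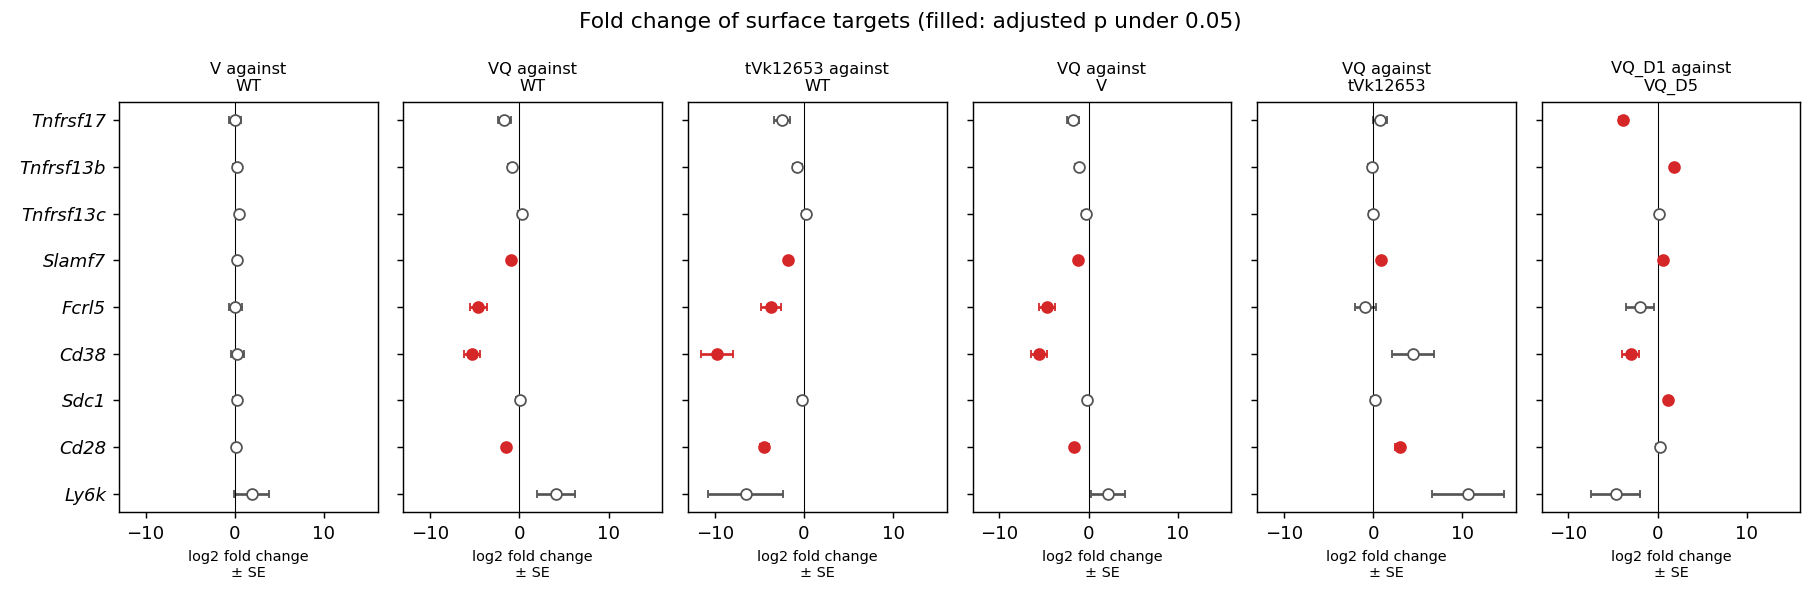
Log2 fold change (x axis, bars ± standard error) of the 9 tested targets (y axis) in each of the 6 comparisons, filled where the adjusted p was under 0.05. Cd38, Fcrl5, Slamf7 and Cd28 lie to the left in all 3 panels that set a tumour arm against WT or V, and the fitted value of Cd38 in tVk12653, where it had no count, depends on the prior count.

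D1 against D5 sets 2 VQ lines labelled with the same genotype side by side, and 5 of 9 tested members differed. Tnfrsf13b, Slamf7 and Sdc1 were higher in D1 and Tnfrsf17 and Cd38 higher in D5, while over all genes 41.7% were called, 20% higher and 21.7% lower in D1. Cd28 (0.26 ± 0.42, adjusted p = 0.650) and Tnfrsf13c (0.15 ± 0.27, adjusted p = 0.692) did not pass. This describes 2 lines with 2 libraries each. D4, a single library, had the highest Sdc1, Tnfrsf13c and Ly6k of the series.

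Of 32 tested genes for other antigens of B lineage cells that antibodies or CAR T cells are made against, 3 were higher and 11 lower in VQ, where 17.3% of all genes were higher and 15.1% lower (median -0.80, over all genes 0.08). In tVk12653 2 were higher and 12 lower, beside 12.6% and 15.7% of all genes (median -0.97, over all genes -0.05). Cd79a, a signalling chain of the B cell receptor, stood at 211 to 407 CPM in WT and 231 to 389 in V, and at most 0.766 in any tumour library. Cd200, an inhibitory ligand, had no count in VQ, at least 32.4-fold below WT, and 0.462 and 1.09 CPM in tVk12653. Igf1r, a growth factor receptor, rose in VQ (1.80 ± 0.17, adjusted p = 1.43e-04) and tVk12653 (2.07 ± 0.18, adjusted p = 1.72e-04), from 153 to 194 CPM in WT to 465 to 808 in tumours.

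Genes whose log2 CPM followed a target most closely over the 13 libraries are named as a description, since libraries share groups and depth differs between them. Man1a (Pearson r = 0.984) was near to Tnfrsf17, and Cnst (0.990) and Bend5 (0.981) to Tnfrsf13b. Ptk2b (0.992) and Pxdc1 (0.984) were nearest to Cd38. Ppp3cc (0.970) led for Slamf7, Map11 (0.967) for Fcrl5, Lpp (0.963) for Cd28 and Stac2 (0.929) for Sdc1. Tnfrsf13c had the weakest nearest gene, Ntf5 (0.909), and Ly6k was followed by Lratd2 (0.960).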

How the data were processed

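The library kit was SMARTer Stranded Total RNA-Seq (pico input), per the labels' protocols, and STAR 2.6.1d and build GRCm38.p6 are named in the submitters' processing notes. The authors deposited raw read counts per gene symbol, without normalization. For the counting tool, annotation and strand setting, nothing is given in the sources used. Counts were tested with edgeR 4.0.16 (robust quasi-likelihood, R 4.3.3) after TMM scaling and filterByExpr (count 10, total 15), and p-values were adjusted by Benjamini-Hochberg across every tested gene, threshold 0.05. Arms were fitted on 11 units (recipients of a VQ line summed), and D1 against D5 on all 13 libraries with 1 mean per group. Of the 10 members 9 passed the filter, all but Gprc5d. Per-library CPM uses TMM factors of all 13. Locations and exon lengths come from GENCODE vM21.

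The members and lists were chosen with earlier results of these data known. All members are named, with up to 4 called genes per pathway list (smallest p in VQ or tVk12653 against WT) and the nearest genes by correlation, apart from a few that are not reported here. Ptprc, Mzb1, Jchain, Ext1, the sex-linked gene and the Ly6k neighbours were named after their values were seen. WT and V libraries with the same number had deviations correlated at 0.125 to 0.19, and those with different numbers at -0.144 to -0.038, so the numbers were taken to pair them. The labels do not link these numbers. Deviations are from the mean of each group, so positive same-number values push the different-number values below 0. The fits were checked on simulated data. Alternatives were relative log expression factors, no filter or a stricter one (30 counts), DESeq2 1.42.0, the 2 arms alone, other units, a replicate block, removal of the 20 most abundant genes, removal of WT replicate 2 with D1 replicate 1, and each unit left out.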

Additional observations from a re-analysis of the deposited data

Results flagged for a closer look

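Line D1 and line D5 differed in 5 of 9 tested targets by edgeR's test of the difference itself, beside 41.7% of all genes. Each line had 2 libraries, and in these 5 every library of a line lay on its own side. The share of all genes that separate in this way was not counted. The call was kept in 18 of 21 alternatives for Slamf7 and 18 of 20 for Cd38. The log2 difference of D1 minus D5 was -3.87 for Tnfrsf17, 1.80 for Tnfrsf13b, 0.56 for Slamf7, -3.04 for Cd38 and 1.17 for Sdc1. Line D4 lay above the WT range where other lines lay below it in 3 targets, and these differences were not tested, since D4 is a single library. Tnfrsf13c stood at 633 CPM in D4, with D1 and D5 below WT. Sdc1 stood at 1425 CPM in D4, with D5 below WT. Ly6k stood at 787 CPM in D4, with D1, D5 and tVk12653 below WT.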

How the results depend on the processing

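Across alternatives other than leaving out 1 unit, 459 member fold changes kept direction and side of the threshold, 4 lost the call, 27 gained it and 25 turned sign. With 1 unit left out the numbers were 553, 20, 15 and 24. The causes were not tested. Members called in VQ against tVk12653 went from 2 to 1 without the filter and 0 with the 2 arms alone, and in tVk12653 against WT from 4 to 7 with the 2 arms alone. With 1 mean per group the counts were 7 (VQ against WT), 8 (VQ against V) and 7 (tVk12653 against WT). With the replicate block over all libraries they were 7, 8 and 7, and with the block for V and WT alone 1 member passed in V against WT. Leaving out 1 unit gave 3 to 7 in VQ against V (7 without D4), 0 to 2 in VQ against tVk12653 and 3 to 6 in D1 against D5. Over all genes, with a mean per group, with the replicate block over all libraries and with the 2 arms alone, the calls went from 3872 to 7359, 6893 and 2040 in VQ against WT, from 3339 to 6885, 6417 and 1498 in VQ against V, from 3369 to 6248, 5965 and 5164 in tVk12653 against WT, from 1212 to 5028, 5084 and 26 in VQ against tVk12653, and from 0 to 24, 91 and 2 in V against WT. DESeq2 called 1986 in VQ against tVk12653.

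Log2 fold changes that turned sign were as follows. Sdc1 in VQ against WT was -0.010 with relative log expression, -0.0044 with DESeq2, -0.13 without WT replicate 2 and D1 replicate 1 together, -0.16 with a mean per arm and -0.16 with a mean per group. Tnfrsf13c in VQ against tVk12653 was -0.042 with relative log expression, -0.0083 with the stricter filter, -0.013 without the 20 most abundant genes, -0.037 with DESeq2, -0.0039 with the 2 arms alone, -0.30 with a mean per arm and -0.26 with a mean per group. Tnfrsf13c in VQ against WT was -0.071 with a mean per arm and -0.032 with a mean per group. Ly6k with a mean per group was -2.49 in VQ against WT and -4.40 in VQ against V. Without WT replicate 2 and D1 replicate 1 together, Tnfrsf17 in V against WT was -0.16 and Cd28 in D1 against D5 -0.34. With the replicate block over all libraries the values were -0.0015 for Fcrl5 in V against WT, -0.044 for Tnfrsf13c, -0.071 for Sdc1 and -2.46 for Ly6k in VQ against WT, -4.27 for Ly6k in VQ against V, and -0.0054 for Tnfrsf17 and -0.19 for Tnfrsf13c in VQ against tVk12653.

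Leaving out 1 unit gave these ranges where a sign turned. In V against WT they were -0.16 to 0.23 for Tnfrsf17, -0.37 to 0.62 for Fcrl5 and -0.084 to 0.36 for Cd28. In VQ against WT they were -0.50 to 0.52 for Tnfrsf13c, -0.41 to 0.38 for Sdc1 and -5.37 to 4.69 for Ly6k, lowest without D4 each time. In VQ against V they were -0.61 to 0.17 for Sdc1 and -7.30 to 2.76 for Ly6k. In tVk12653 against WT they were -0.24 to 0.61 for Tnfrsf13c and -0.73 to 0.27 for Sdc1. In VQ against tVk12653 they were -0.32 to 1.23 for Tnfrsf17, -0.51 to 0.27 for Tnfrsf13b, -0.73 to 0.46 for Tnfrsf13c, -1.73 to 3.07 for Fcrl5 and -0.25 to 0.76 for Sdc1. In D1 against D5 they were -0.098 to 0.44 for Tnfrsf13c and -0.35 to 0.75 for Cd28. Levels scaled by raw totals moved beyond the replicate spread in 10 of 53 cases, and levels per kilobase with the length of the longest transcript in 21 of 53, Tnfrsf13b in D4 and D5 and Tnfrsf13c in D4 among them. At these depths Fcrl5, Gprc5d, Cd38 and Ly6k rest on few or no counts in most tumour libraries.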
